A study of Mus musculus with 9 samples.

Results

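The cytosolic ribosomal protein genes encode the proteins of the ribosomes that work in the cytoplasm. They were taken as the protein-coding genes of the deposited FPKM table whose names are Rpl or Rps with a number and at most 1 further letter, together with Rplp0, Rplp1, Rplp2 and Rpsa. FPKM divides the sequenced fragments of a gene by its length and by the size of the library, so that levels can be set beside each other between genes. A gene also needed a level of 0.5 FPKM or more in 3 or more of the 9 libraries. Of 72 names that fitted, 71 genes passed, which is 71 of the 28385 features in the table and of the 15608 that reached the same level. They comprise 38 proteins of the large subunit, 30 of the small subunit and the 3 proteins of the stalk. These numbers include the paralogs Rpl10l, Rpl3l and Rps27l. The set is incomplete, since Rpl7, Rpl10, Rpl13a, Rpl27a, Rpl36, Rpl37a, Rpl41, Rps7 and Rps26 were not among the names that fitted. Of the 30560 rows, 7162 (23.4%) carry no gene name, and whether these genes lie among them was not tested. Sums, shares and ratios given for the family are therefore those of the 71 genes only. The passing gene nearest to the level limit was Rpl10l, at 0.690 to 1.39 FPKM, and the gene that did not pass was Rpl39l, at 0 to 0.199 FPKM. Not counted were 9 kinase genes whose symbols begin with Rps6k, 15 genes with other endings, such as Rpl22l1 at 129 FPKM and Rpl35al1 at 141 FPKM on average, 1 of them classed as a pseudogene, and 2 rows that carry the name of a member but are not protein-coding.

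RNA was sequenced from the skin of ulcers on day 21 in 3 groups of 3 libraries. In the first group, diabetic animals had platelet-rich plasma (PRP), a blood fraction in which platelets are enriched, injected at the wound in a volume of 0.5 ml on days 1, 7, 14 and 21. The second group was diabetic and the third non-diabetic, and both received saline in the same volume. The series design names rats, the labels name mouse, and all 30560 row identifiers of the table are rat Ensembl identifiers, so the genes are treated as rat genes. The strain, the age of the animals, the way diabetes was induced and any pooling of animals are not named by the labels or the design.

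A ribosome joins a small subunit, which reads the mRNA, and a large subunit, which forms the peptide bond. Nearly every ribosomal protein is present once in each ribosome, and cells make these proteins in matched amounts. Their mRNAs begin with a C and a run of pyrimidines, the 5′ terminal oligopyrimidine (TOP) motif, through which growth signals acting on the kinase complex mTORC1 control their translation. In healing skin, cells that divide and secrete matrix need many ribosomes.

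The start of some of these genes is shown because the motif is a feature that the family is known to share. The sequences are those of the mouse genes from RefSeq on GRCm38.p6, since no rat sequence was used here, and they give 10 bases before and 20 bases from the annotated start on the strand of the gene. Capitals mark a run of at least 5 bases made of a C and then only C or T that begins within 5 bases of that start. In these genes, whose values in the ulcers are given further on, such a run was found:
Rpl38, chr11:114668570-114668599, plus strand: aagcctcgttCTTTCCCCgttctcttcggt
Rps6, chr4:86857348-86857377, minus strand: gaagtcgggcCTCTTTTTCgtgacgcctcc
Rps27, chr3:90213629-90213658, minus strand: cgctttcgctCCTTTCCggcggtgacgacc
Rpl35, chr2:39005112-39005141, minus strand: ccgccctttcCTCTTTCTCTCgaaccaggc
Rpl18, chr7:45718061-45718090, plus strand: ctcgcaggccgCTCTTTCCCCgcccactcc

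In the next genes these letters were not found at the annotated start, among them Rpl3l, the form of muscle:
Rpl3l, chr17:24727816-24727845, plus strand: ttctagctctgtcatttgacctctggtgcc
Rplp0, chr5:115559457-115559486, plus strand: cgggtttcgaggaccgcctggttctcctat
Rpl26, chr11:68901556-68901585, plus strand: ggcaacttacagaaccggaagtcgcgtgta

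Of the 71 genes, 52 had a mouse entry, and 13 of these (25%) had a run beginning exactly at the annotated start. Among all 27025 mouse genes with such an entry, 813 (3.01%) did. Allowing 5 bases to either side, the numbers were 25 of 52 (48.1%) and 5718 of 27025 (21.2%). The search covered the strand of the gene only, and a run could continue a longer stretch of pyrimidines. It depends on the annotated start, so a window without a run says nothing of the mRNA made in rat skin.

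Members of the family were among the most abundant mRNAs of the ulcers. Their mean levels had a median of 462 FPKM, with 397 FPKM for the large subunit and 499 FPKM for the small subunit, and 63 of 71 lay at 100 FPKM or more. Of all 15608 features, 512 (3.28%) did. The highest was Rps29, a small zinc-binding protein of the small subunit, at 2660, 2107 and 2212 FPKM in PRP-treated diabetic ulcers, 2289, 1431 and 3125 FPKM in diabetic ulcers and 1948, 2396 and 2051 FPKM in non-diabetic ulcers. It was above the next gene, Rps20, in all 9 libraries, and its groups overlapped. Rps20 was at 1691, 1368 and 1448 FPKM in PRP-treated diabetic ulcers, 1457, 1322 and 1970 FPKM in diabetic ulcers and 1116, 1339 and 1216 FPKM in non-diabetic ulcers.

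After these came Rps15 at 1234 FPKM and Rps27, another zinc-binding protein, at 1164 FPKM on average. In the large subunit the highest means belonged to Rpl38 (988 FPKM), Rpl32 (883 FPKM), Rpl5 (833 FPKM) and Rpl19 (817 FPKM). Rpl5 binds the 5S rRNA and, outside the ribosome, the p53 regulator Mdm2. The order among neighbours was mostly within the spread of the libraries, since only 3 of 70 neighbouring pairs kept their order in all 9. Over the whole family the order was similar from library to library, with rank correlations of 0.938 to 0.989 over 71 genes for each pair of libraries, which share gene lengths and the family's composition.

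Of the 4 genes with the lowest means, 3 encode paralogs of other ribosomal proteins. Rpl10l, a paralog of Rpl10 known from testis, averaged 0.791 ± 0.137 FPKM in PRP-treated diabetic, 1.21 ± 0.268 FPKM in diabetic and 1.04 ± 0.184 FPKM in non-diabetic ulcers (SD, n = 3 each). Rpl3l, which replaces Rpl3 in heart and skeletal muscle, averaged 14.5 FPKM over all libraries, against 530 FPKM for Rpl3. Rps27l, a paralog of Rps27 and a target of p53, averaged 28.9 FPKM. Next above it among small-subunit genes was Rps28, at 66.5 FPKM. The X-linked Rps4x stood at 509 ± 75.2 FPKM in PRP-treated diabetic, 559 ± 91.2 FPKM in diabetic and 421 ± 82.9 FPKM in non-diabetic ulcers (SD, n = 3 each).

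**Figure D1:**
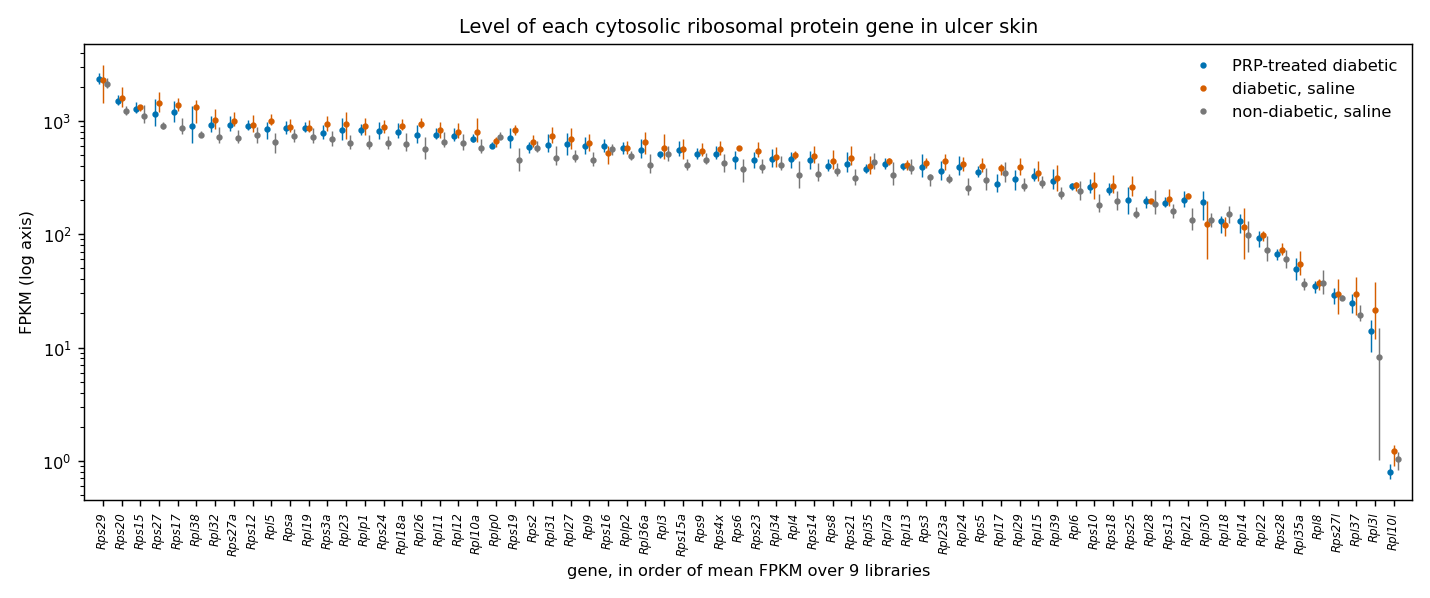
FPKM (log axis) of 70 of the 71 cytosolic ribosomal protein genes in order of their mean over 9 libraries; points are group means and vertical lines join the lowest and highest of 3 libraries, for PRP-treated diabetic (blue), diabetic (orange) and non-diabetic (grey) ulcers. Most genes lie between 100 and 2247 FPKM, and Rpl3l and Rpl10l lie lowest.

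The family rose and fell in the libraries as a block. The FPKM of its 71 genes summed to 44491, 34972 and 33386 in PRP-treated diabetic ulcers, 39198, 36445 and 49011 in diabetic ulcers and 28735, 36919 and 28156 in non-diabetic ulcers. Diabetic replicate 3 was thus highest, non-diabetic replicates 1 and 3 were lowest, and non-diabetic replicate 2 stood above diabetic replicate 2. Of the 71 genes, 48 had their highest value in diabetic replicate 3, while 39 had their lowest in non-diabetic replicate 3 and 20 in non-diabetic replicate 1.

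As a share of the FPKM of protein-coding genes, the family made up 10.9% ± 1.33 in PRP-treated diabetic, 11.8% ± 1.09 in diabetic and 9.23% ± 1.16 in non-diabetic ulcers (SD, n = 3 each). The diabetic libraries held 11.4%, 10.9% and 13.0%, and the non-diabetic libraries 8.68%, 10.6% and 8.45%, so that these groups did not overlap on this scale. The PRP-treated libraries, at 12.5%, 10.2% and 10.2%, overlapped both. On other scales diabetic and non-diabetic libraries did overlap. As a share of all FPKM the family made up 5.26% ± 0.743 in PRP-treated diabetic, 6.63% ± 0.732 in diabetic and 5.34% ± 0.638 in non-diabetic ulcers (SD, n = 3 each), with diabetic replicate 2 at 5.82% and non-diabetic replicate 2 at 6.07%. The 10 features with the most FPKM in each library took 52.6% ± 2.45 of all FPKM in PRP-treated diabetic, 43.9% ± 2.37 in diabetic and 43.8% ± 0.401 in non-diabetic ulcers. A common set, the 10 features highest by mean over all libraries, was also left out, apart from any that belong to the family. The family's share was then 10.99% ± 1.20 in PRP-treated diabetic, 11.7% ± 1.26 in diabetic and 9.46% ± 1.17 in non-diabetic ulcers. On this scale diabetic replicate 2 (10.6%) lay below non-diabetic replicate 2 (10.8%).

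Large and small subunits kept nearly the same proportion, with a ratio of summed FPKM (large with stalk over small) of 0.957, 0.966 and 0.926 in PRP-treated diabetic, 0.989, 1.003 and 0.972 in diabetic and 0.961, 0.998 and 0.938 in non-diabetic ulcers.

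On the log2(FPKM + 1) scale, the SD over the 9 libraries had a median of 0.30 for the 71 genes and 0.32 for all 15608 features. It was 0.36 for the 90 features at or above the median level of the family. These include the members at or above that level, so they are not a separate comparison. Once the mean of the family in each library was subtracted, which takes out what the genes share by construction, the median SD of the 71 genes was 0.13. Rps4x moved least on that relative scale (SD 0.043), followed by Rpl11 (0.060), named after its values were seen, and the ubiquitin fusion gene Rps27a (0.061).

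**Figure D2:**
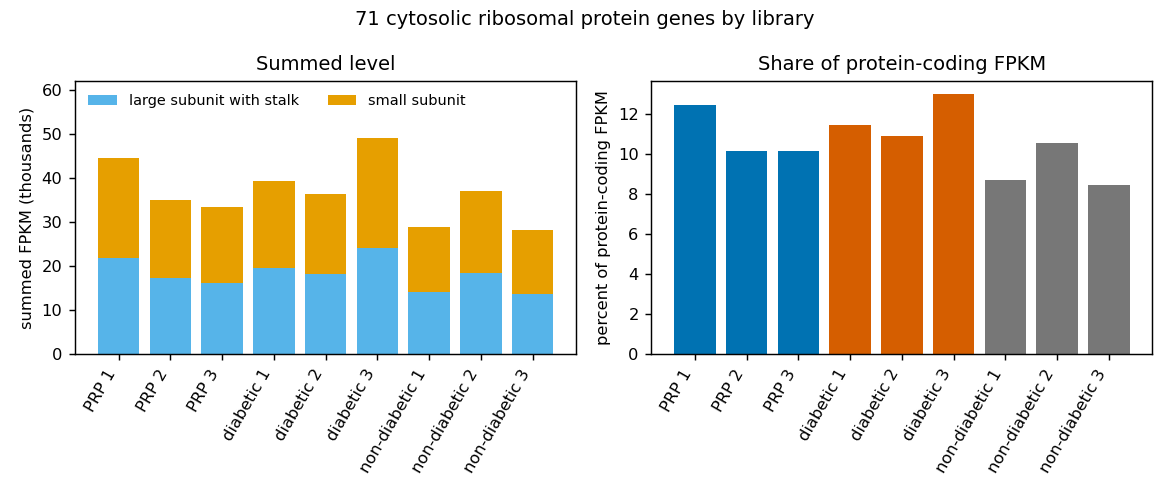
Left, summed FPKM of the 71 genes in each library in units of 1000 FPKM, split into the large subunit with stalk (blue) and the small subunit (yellow); right, the family's percent of protein-coding FPKM. Diabetic replicate 3 is highest at 13.0%, and non-diabetic replicates 1 and 3 are lowest at 8.68% and 8.45%.

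The libraries differed in tissue composition, and these values stand beside every comparison. Of 23 keratinocyte and hair follicle markers 18 were tested, and their FPKM summed to 5825 to 12069 in PRP-treated diabetic, 4517 to 10935 in diabetic and 3003, 5229 and 205 in non-diabetic replicates 1, 2 and 3. The basal keratinocyte keratin Krt5 averaged 1789 ± 618, 1326 ± 169 and 576 ± 573 FPKM in PRP-treated diabetic, diabetic and non-diabetic ulcers (SD, n = 3 each). All 16 fibroblast and matrix markers were measured, with sums of 13559 to 31022 FPKM in PRP-treated diabetic, 3978 to 20898 FPKM in diabetic and 23920 to 30128 FPKM in non-diabetic ulcers. The 13 macrophage markers summed to 917 to 1849, 316 to 1407 and 2091 to 2841 FPKM in PRP-treated diabetic, diabetic and non-diabetic ulcers. In PRP-treated diabetic against diabetic ulcers 0 markers were called, and the change was above 0 for 16 of 16 fibroblast (median 1.07), 12 of 13 macrophage (median 0.83), 13 of 13 lymphocyte (median 0.55) and 6 of 7 neutrophil markers (median 0.68). That change was above 0 for 8 of 18 keratinocyte (median -0.64), 1 of 16 skeletal muscle (median -0.64) and 0 of 5 adipocyte markers (median -0.41). In diabetic against non-diabetic ulcers 5 fibroblast, 9 macrophage, 4 of 13 lymphocyte, 2 of 8 endothelial and 2 of 3 erythroid markers were called lower. Of all features 7.16% were called lower in that comparison. These calls depend on the setting, since no feature was called with no filter or without non-diabetic replicate 1 or 3. The change there was above 0 for 18 of 18 keratinocyte (median 2.56), 16 of 16 skeletal muscle (median 2.45) and 5 of 5 adipocyte markers (median 0.77), with 0 called. The 13 genes encoded by mitochondrial DNA all had changes above 0 there (median 0.68) and below 0 in PRP-treated diabetic against diabetic ulcers (median -0.31), with 0 called. In PRP-treated diabetic against non-diabetic ulcers 18 of 18 keratinocyte (median 2.51) and 16 of 16 skeletal muscle markers (median 1.53) were above 0. Of the fibroblast markers 2 of 16 (median -0.67) and of the macrophage markers 0 of 13 (median -0.97) were above 0 there, with 0 called. No listed marker in the table was at 0 in all libraries. In tissue RNA, fewer cells of a type and less RNA per cell cannot be told apart, and the part of these cell types in the ribosomal protein values was not tested.

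The effect of PRP was asked by setting PRP-treated diabetic against diabetic ulcers. None of the 71 genes passed an adjusted p of 0.05 in limma (Benjamini-Hochberg over 15608 features), and neither did any other feature (percent called 0.0%). At an unadjusted p under 0.05 there were also 0 of the 71 genes, against 1023 features in all (6.55%). The log2 change was below 0 for 65 of the 71 genes, with a median of -0.13, while the median over all features was -0.063 and 41.0% of them lay above 0. With size factors 19 of the 71 genes, not 6, lay above 0. Medians were -0.14 for the large subunit, -0.13 for the small subunit and -0.13 for the stalk. The family's median was -0.0014 without diabetic replicate 3, the library with the most ribosomal protein mRNA, and -0.26 without PRP replicate 1, so its size rests on these libraries.

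Among large-subunit genes, Rpl38 had the most negative change. Its FPKM was 1364, 681 and 632 in PRP-treated diabetic ulcers, against 1480, 954 and 1527 in diabetic ulcers. PRP replicate 1 lay among the diabetic libraries and the other 2 below them, and the log2 change was -0.63 (SE 0.34, adjusted p = 0.713). It was -0.98 without PRP replicate 1 and -0.42 without PRP replicate 3. Rpl17, which lies by the tunnel where the new protein leaves the ribosome, had 248, 339 and 237 FPKM in PRP-treated diabetic ulcers, against 417, 330 and 393 FPKM in diabetic ulcers. These groups overlapped through PRP replicate 2 and diabetic replicate 2 (log2 change -0.48, SE 0.23, adjusted p = 0.713). The other large changes below 0 were those of Rpl3l (-0.43), Rps25 (-0.39), which viral and cellular internal ribosome entry sites need, and Rpl29 (-0.37). Without PRP replicate 3 the changes of Rps25 and Rpl29 were both -0.21, and without PRP replicate 1 that of Rps25 was -0.60.

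Rps6, the target of the S6 kinases downstream of mTORC1, was the only gene of the family whose groups did not overlap, and it is named because of that. It was at 472, 375 and 537 FPKM in PRP-treated diabetic ulcers, against 604, 577 and 562 FPKM in diabetic ulcers, with -0.35 as its log2 change (SE 0.23, adjusted p = 0.725). Groups without overlap and lower in PRP made up 5.55% of all features, against 1 of 71 genes here (1.41%).

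Changes above 0 were seen in Rpl30 (0.77), Rpl14 (0.27), Rps16 (0.23), Rpl18 (0.12), Rps29 (0.092) and Rps27l (0.011). Rpl30 was at 204, 240 and 132 FPKM in PRP-treated diabetic ulcers, against 198, 60.5 and 108 FPKM in diabetic ulcers, so that diabetic replicate 1 lay within the PRP-treated range. Its standard error was 0.40 and its adjusted p = 0.713, and the change was 0.35 without diabetic replicate 2 and 1.19 without diabetic replicate 1. The change of Rpl14 rested on a single library, since diabetic replicate 1 had 59.8 FPKM while the other 2 diabetic ulcers had 171 and 119 FPKM, against 141, 149 and 103 FPKM in PRP-treated diabetic ulcers. Without diabetic replicate 1 its change was -0.14, and those of Rpl18 and Rpl3l were -0.033 and 0.064. Rps29 changed sign too, to -0.0084 without PRP replicate 1 and to -0.21 without diabetic replicate 2.

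Diabetes itself was addressed by diabetic against non-diabetic ulcers, both with saline. Ribosomal protein mRNAs lay mostly above the non-diabetic level, yet 0 of 71 genes passed an adjusted p of 0.05, while 1396 of 15608 features did (percent called 8.94%, with 1.79% higher and 7.16% lower). That count over all features was 0 to 3498 when 1 library was left out. The change was above 0 for 66 of 71 genes (93.0%), against 53.5% of all features, and its median was 0.44, against 0.045 over all features. At an unadjusted p under 0.05, 17 genes were higher (23.9%) and 0 lower, beside 15.7% and 19.0% of all features. The diabetic and non-diabetic libraries did not overlap for 27 genes, all higher in diabetic ulcers (38.0%), where 14.4% of all features were higher without overlap and 19.6% lower.

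The family's median change was 0.46 in the large subunit, 0.44 in the small subunit and 0.24 in the stalk. Leaving out 1 library at a time it was 0.31 at the lowest, when diabetic replicate 3 was missing, and 0.59 at the highest, when non-diabetic replicate 2 was missing. With non-diabetic replicates 1 and 3 left out together, which leaves replicate 2 as the only non-diabetic library, it was 0.17, and 53 of 71 genes had a change above 0. These 2 libraries also had the lowest keratinocyte and hair follicle marker sums of the 9.

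Rps19, a small-subunit protein whose gene is mutated in the human disorder Diamond-Blackfan anaemia, came nearest to the threshold. Its FPKM was 747, 815 and 913 in diabetic ulcers, against 413, 577 and 360 in non-diabetic ulcers. Every diabetic library was above every non-diabetic library, and the log2 change was 0.90 (SE 0.25, adjusted p = 0.0575). On the rat chromosome 1 of the table Rps19 (ENSRNOG00000037897) spans 80480951 to 80486508 on the plus strand.

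Rpl26, which lies at the exit tunnel and in human cells also binds the mRNA of p53, was at 899, 857 and 1057 FPKM in diabetic ulcers, against 491, 720 and 464 FPKM in non-diabetic ulcers (0.77, SE 0.25, adjusted p = 0.0772). The lowest diabetic value of Rpl26 exceeded the highest non-diabetic value. Without non-diabetic replicate 2, whose summed level lay above that of diabetic replicate 2, 7 of 71 members passed, all higher. Among them were Rpl21, Rpl22, Rpl24, Rpl26, Rpl4 and Rps19. Of all 15608 features 22.4% were called there, 1513 higher and 1985 lower. With sample weights, which gave non-diabetic replicate 1 a weight above all others, 37 of 71 members were called, all higher. Of all 15608 features 35.9% were called with these weights, 2716 higher and 2891 lower.

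Rpl38 reached 1480, 954 and 1527 FPKM in diabetic ulcers, against 713, 808 and 738 FPKM in non-diabetic ulcers, a log2 change of 0.78 (SE 0.34, adjusted p = 0.142). Its non-diabetic libraries were close together and all below the diabetic ones. Rps6 was at 604, 577 and 562 FPKM in diabetic ulcers, against 462, 379 and 290 FPKM in non-diabetic ulcers (0.65, SE 0.23, adjusted p = 0.0917), again without overlap. The diabetic libraries are shared between this comparison and the one with PRP, so a library that is high among them moves both.

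A few genes did not share the shift. Rpl18 had a log2 change of -0.34, Rpl30 of -0.27, the stalk base Rplp0 of -0.14, Rpl35 of -0.12 and Rps16 of -0.12, with adjusted p-values of 0.293 to 0.707. Rplp0 was at 585, 673 and 721 FPKM in diabetic ulcers, against 696, 795 and 690 FPKM in non-diabetic ulcers, and these ranges overlapped. Its partners on the stalk, Rplp1 and Rplp2, which recruit the elongation factors, had changes of 0.52 and 0.24. Rplp1 averaged 903 ± 156 FPKM in diabetic and 629 ± 103 FPKM in non-diabetic ulcers, and Rplp2 579 ± 80.0 FPKM in diabetic and 487 ± 45.1 FPKM in non-diabetic ulcers (SD, n = 3 each). Rpsa, also known as a laminin receptor, had a change of 0.27, and Rps27a one of 0.50. Some directions near 0 turned with the setting, with Rpl30 at 0.15 and Rps16 at 0.028 without diabetic replicate 2, and Rpl35 at 0.021 without non-diabetic replicate 2.

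**Figure D3:**
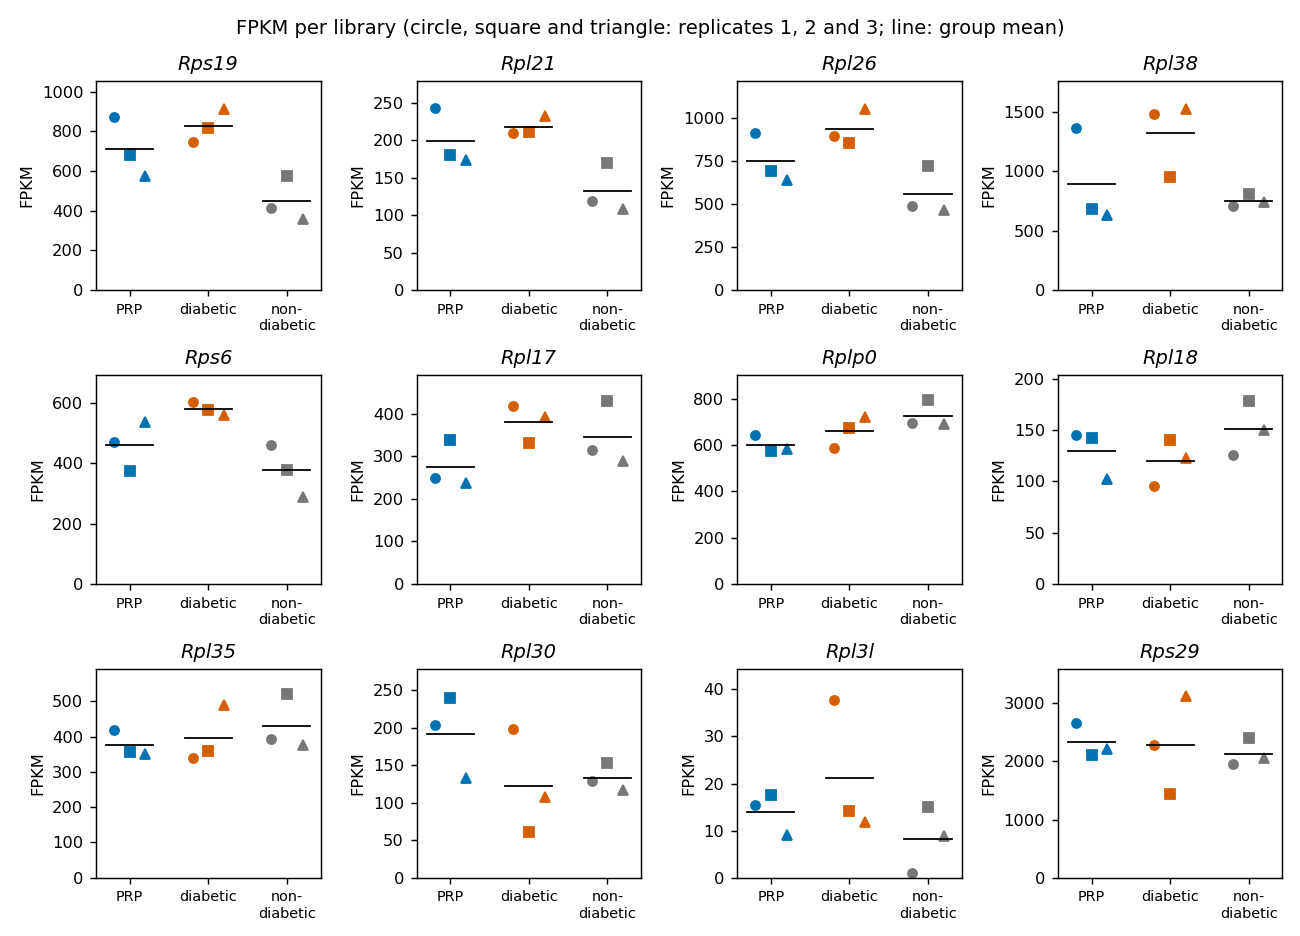
FPKM of 12 ribosomal protein genes in each library (circle, square and triangle for replicates 1, 2 and 3; horizontal line, group mean), with PRP-treated diabetic ulcers at the left, diabetic in the middle and non-diabetic at the right of each panel. Rps19 and Rpl26 show no overlap between diabetic and non-diabetic ulcers, while Rplp0, Rpl18 and Rpl35 do.

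PRP-treated diabetic ulcers were also set against non-diabetic ulcers. Of the 71 genes 0 passed, and 1 feature of 15608 did (percent called 0.00641%). At an unadjusted p under 0.05 4 of 71 genes were higher (5.63%), among them Rpl21, Rpl24 and Rps19, beside 7.56% of all features. The change was above 0 for 65 genes, with a median of 0.28, against -0.038 and 45.8% above 0 over all features. With sample weights 23 members were called, Rpl10l lower and the others higher. Of all features 41.5% were called with these weights, 2844 higher and 3633 lower. The family's median was 0.0059 with non-diabetic replicates 1 and 3 left out, where 37 of 71 genes lay above 0.

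Rpl21 had 243, 181 and 173 FPKM in PRP-treated diabetic ulcers, against 119, 169 and 108 FPKM in non-diabetic ulcers, a log2 change of 0.60 (SE 0.21, adjusted p = 0.194). Rpl24, which forms a bridge between the subunits, had 491, 331 and 343 FPKM in PRP-treated diabetic ulcers, against 239, 311 and 222 FPKM in non-diabetic ulcers (0.58, SE 0.23, adjusted p = 0.213). Both showed no overlap, as did Rplp1, Rps10, Rps15a and Rps20, which makes 6 of 71 genes higher (8.45%), beside 8.92% of all features. The share is close to that of the table as a whole.

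Rplp0 was the only member lower without overlap, beside 20.4% of all features. It had 644, 573 and 585 FPKM in PRP-treated diabetic ulcers, against 696, 795 and 690 FPKM in non-diabetic ulcers, with -0.27 as its log2 change (SE 0.19, adjusted p = 0.439). The other negative changes were those of Rpl17 (-0.32), Rpl18 (-0.22), Rpl35 (-0.19) and Rpl10l (-0.18), and the remaining gene of the 6 below 0 was Rpl8 (-0.046). Rps19 had a change of 0.66, with an adjusted p of 0.206.

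**Figure D4:**
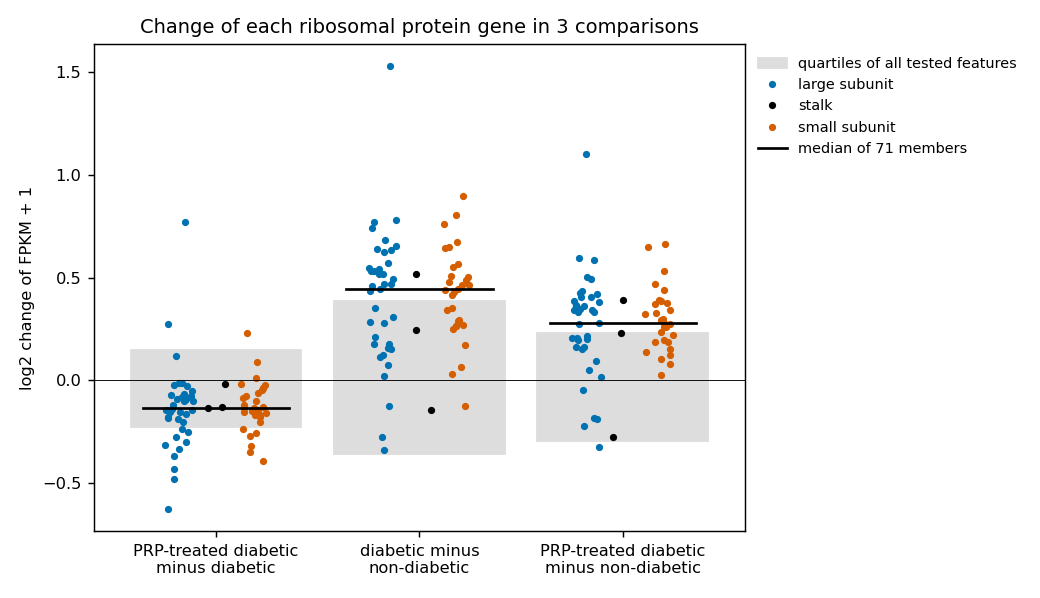
Log2 change of FPKM + 1 for each of the 71 genes in the 3 comparisons (blue, large subunit; black, stalk; orange, small subunit), with the median of the 71 as a black line and the quartiles of all 15608 features as a grey band. The medians are -0.13, 0.44 and 0.28, and 0 genes passed an adjusted p of 0.05 in any comparison.

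Because most genes moved together, each was also compared with the mean log2 level of the family in the same library. This alternative scaling moves the median change of all features by more than 0.1, to -0.36 in diabetic against non-diabetic ulcers and to -0.31 in PRP-treated diabetic against non-diabetic ulcers, so that a change on it is a change in proportion to the family. On it Rpl18 fell in diabetic against non-diabetic ulcers (log2 change -0.74, SE 0.21, adjusted p = 0.0436). It was the only member called, where 16.1% of all features were. The shift itself raised the number of features called in that comparison from 1396 to 2519, of which 2391 were lower. Adjusted p-values on this scale depend on that number, so they are partly set by the centring and cannot be set beside those of the main fit. Rpl18 lay at -1.93, -1.32 and -1.86 relative to the family in diabetic ulcers, against -1.09, -0.99 and -0.80 in non-diabetic ulcers.

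Rpl35, another protein at the exit tunnel, had non-diabetic values close together. Relative to the family it was at 0.0071, 0.073 and 0.15 in PRP-treated diabetic, -0.12, 0.024 and 0.13 in diabetic and 0.55, 0.55 and 0.52 in non-diabetic ulcers. The non-diabetic libraries, replicate 2 included, were all above the 6 diabetic ones (diabetic minus non-diabetic -0.53, SE 0.16, adjusted p = 0.0509).

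Rplp0 was at 0.63, 0.76 and 0.89 in PRP-treated diabetic, 0.66, 0.93 and 0.69 in diabetic and 1.37, 1.16 and 1.39 in non-diabetic ulcers relative to the family (diabetic minus non-diabetic -0.54, adjusted p = 0.0617). Rps16 had a relative change of -0.52 (adjusted p = 0.0602) and Rps19 of 0.49 (adjusted p = 0.0703) in the same comparison. Over the family 12 genes were higher and 11 lower without overlap on this scale, beside 3.61% higher and 30.2% lower of all features. The genes that were lower were Rpl13, Rpl18, Rpl19, Rpl28, Rpl34, Rpl35, Rplp0, Rps15, Rps16, Rps9 and Rpsa. Between PRP-treated diabetic and diabetic ulcers 0 members passed on the relative scale, where the smallest unadjusted p was that of Rpl30 (0.0381, log2 change 0.90, SE 0.37, adjusted p = 1.00).

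**Figure D5:**
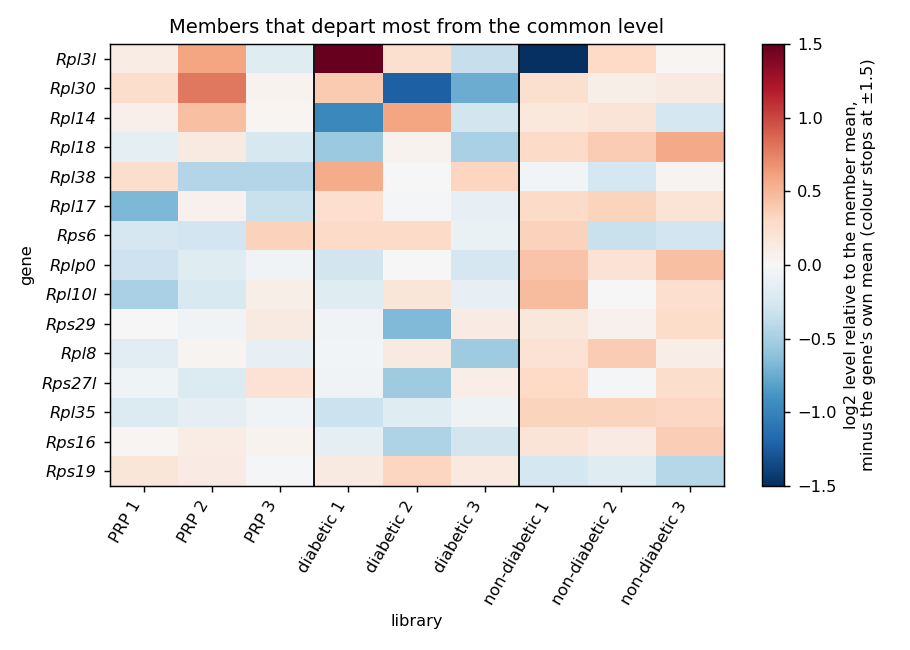
Shown are 15 of the 16 genes with the largest SD of their level relative to the family; colour is the log2 level minus the family mean in that library and minus the gene's own mean, by library, with PRP-treated diabetic at the left and non-diabetic at the right. Rpl35 and Rplp0 are high in all 3 non-diabetic libraries, and Rps19 is low in them.

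The muscle paralog Rpl3l departed furthest from the family. It had an SD of 1.01 on the relative scale, the highest of the 71 genes. It was at 15.5, 17.6 and 9.10 FPKM in PRP-treated diabetic, 37.8, 14.2 and 11.8 FPKM in diabetic and 1.01, 15.0 and 8.81 FPKM in non-diabetic ulcers. Diabetic replicate 1 was highest and non-diabetic replicate 1 lowest. The FPKM of 16 tested skeletal muscle markers of 19 listed summed to 8626, 7143 and 6051 in PRP-treated diabetic, 22313, 11226 and 5913 in diabetic and 343, 6008 and 3384 in non-diabetic ulcers, with the same libraries highest and lowest. The part of muscle content in the Rpl3l values was not tested. Its change was 1.53 in diabetic against non-diabetic ulcers (SE 0.73, adjusted p = 0.172) and 1.10 in PRP-treated diabetic against non-diabetic ulcers. Without non-diabetic replicate 1 these values were 0.65 and 0.22, and the second was -0.13 without non-diabetic replicates 1 and 3.

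Several genes stand in more than 1 row of the table. The 71 genes cover 96 loci, of which 56 genes have 1 locus and 15 have several, up to 6 for Rpl38 and Rpl39. All 25 minor loci span fewer than 1000 bases, while no gene with 1 locus does. Reads could be split among such near-identical copies, so the values of single loci, and of these 15 genes, are uncertain. Genes with 1 locus are not free of this limit, since 1 locus means 1 row of that exact name. Rows of related names, named after their values were seen, include Rps18l1 at 84.2 FPKM beside Rps18 at 235 FPKM on average. Rps10l1 averaged 59.9 FPKM beside Rps10 at 239 FPKM. Rpl12, named after its values were seen, had 14.2% of its FPKM on the X chromosome copy in diabetic replicate 1 and 46.1% in non-diabetic replicate 2, with the rest at its locus on chromosome 3. Rpl38 had 90.2% of its mean FPKM at its locus on chromosome 10 (99701362 to 99705004, plus strand), with 88.9% to 91.4% in single libraries. Rpl37, also named after its values were seen, has only short loci, of 328 and 372 bases. Its mean of 24.7 FPKM is therefore uncertain as the level of that gene.

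For Rpl30 both protein-coding loci on chromosome 10 are short, at 156 and 491 bases, and the first was listed at 0. A row of the same name on chromosome 7 is classed as lncRNA and is not in the 71 genes. It had 23.0, 5.51 and 15.6 FPKM in PRP-treated diabetic, 21.5, 32.7 and 42.3 FPKM in diabetic and 13.6, 15.3 and 11.4 FPKM in non-diabetic ulcers. PRP replicate 2 was highest at the protein-coding locus and lowest in this row, so the changes of Rpl30 depend on which row is read. For the 56 genes with 1 locus the median change was -0.13 for PRP-treated diabetic against diabetic, 0.44 for diabetic against non-diabetic and 0.27 for PRP-treated diabetic against non-diabetic ulcers. The 15 genes with several loci had medians of -0.13, 0.49 and 0.34 in the same comparisons.

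Other genes of translation were read from lists chosen with earlier results of these data known. Of 22 further TOP mRNAs listed, 17 were tested, and 0 were called in any comparison. Their change was above 0 for 0 of 17 in PRP-treated diabetic against diabetic ulcers (median -0.18) and for 14 of 17 in diabetic against non-diabetic ulcers (median 0.22). Eef1a1, the elongation factor that brings tRNA to the ribosome, was the most abundant, at 2354 ± 235 FPKM in PRP-treated diabetic, 2656 ± 97.8 FPKM in diabetic and 3264 ± 410 FPKM in non-diabetic ulcers (SD, n = 3 each). It had a log2 change of -0.29 in diabetic against non-diabetic ulcers, on the side of Rplp0 and against the median of the ribosomal proteins. The translocation factor Eef2 had a change of -0.089, Tpt1, a translationally controlled growth protein, of 0.17 and Rack1, a scaffold on the small subunit, of 0.086 in the same comparison.

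The 25 tested initiation genes had 0 calls in any comparison, with 24 of 25 above 0 in diabetic against non-diabetic ulcers (median 0.34) and 2 of 25 above 0 in PRP-treated diabetic against diabetic ulcers (median -0.21). The helicase gene Eif4a1 averaged 388 ± 46.2, 405 ± 150 and 331 ± 5.20 FPKM in PRP-treated diabetic, diabetic and non-diabetic ulcers (SD, n = 3 each). Of 47 tested ribosome biogenesis genes 42 were above 0 in diabetic against non-diabetic ulcers (median 0.22) and 3 in PRP-treated diabetic against diabetic ulcers (median -0.25), with 0 calls. Nucleolin (Ncl), the most abundant of them, had a change of -0.18 in diabetic against non-diabetic ulcers.

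Mitochondrial ribosomal proteins serve the separate ribosome of mitochondria. All 69 were tested, and 63 were above 0 in diabetic against non-diabetic ulcers (median 0.36), 61 in PRP-treated diabetic against non-diabetic ulcers (median 0.21) and 11 in PRP-treated diabetic against diabetic ulcers (median -0.18). In this list 1 of 69 genes was called in diabetic against non-diabetic ulcers, beside 1.79% of all features called higher. Mrpl1 rose, at 17.3 ± 2.37 FPKM in diabetic and 9.29 ± 1.75 FPKM in non-diabetic ulcers (SD, n = 3 each). Its log2 change was 0.84 (adjusted p = 0.0476). The call was lost with no filter and on only the 6 libraries compared, where no feature at all was called. Whether Mrpl1 was called in the settings that did call features is not given here. The medians of cytosolic and mitochondrial ribosomal proteins were thus on the same side of 0 in each comparison, and the difference between the families was not tested. Proliferation markers, 15 of 15 tested, had medians of -0.12, 0.24 and 0.12 in PRP-treated diabetic against diabetic, diabetic against non-diabetic and PRP-treated diabetic against non-diabetic ulcers, with 0 calls.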

How the data were processed

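The authors deposited FPKM for 9 libraries (per the file headers and the table's name), and raw read counts of 249 lncRNA genes. Beside these counts the authors gave group means of a size-factor-scaled signal, log2 fold changes and p-values for diabetic against non-diabetic ulcers, per the file headers; these were not used here, except that the ratio of counts to FPKM over 81 genes with at least 20 counts in each library gave depths of 0.839 to 1.116 relative to the mean. RNA was extracted with an RNeasy Plus kit and sequenced with a directional NEBNext kit, per the labels. Per the submitters' processing notes, cutadapt, FastQC, HISAT2, StringTie and GRCm39, a mouse assembly, were used; no source used here names the rat build, and read totals are not known, so no counting interval is given.

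FPKM of rows with the same name and gene type were summed. The 3 groups were fitted together on log2(FPKM + 1) with limma-trend (limma 3.58.1, R 4.3.3), two-sided, adjusted by Benjamini-Hochberg over 15608 features of at least 0.5 FPKM in 3 or more libraries and called at an adjusted p under 0.05. Fold changes are on the log2(FPKM + 1) scale, which understates those of low genes. The test was tried on simulated data with noise drawn separately for each gene and changes placed in the PRP group only. In the ulcer libraries genes moved together, so that trial does not show how the test behaves on them. Unless said otherwise p-values come from the limma-trend fit and measure the spread between samples that the labels number as biological replicates. Replicate numbers were not treated as pairs, except in the replicate block named below.

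Members and gene lists were chosen with earlier results of these data known. Named genes are the highest and lowest members of each subunit, the stalk proteins, Rpsa, Rps27a, members ending in l, x or y, the 5 largest rises and falls per comparison, called members, and up to 4 genes per list; others are said to be named after their values were seen. Genes listed as not overlapping between groups and the genes of the relative scale come from those counts. Alternatives were a pseudocount of 0.1, no filter, median-of-ratios size factors, centring on the family mean, only the 6 libraries compared, a replicate block, sample weights and leaving out libraries. The values of 1 member are not reported here by name.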

Additional observations from a re-analysis of the deposited data

How the results depend on the processing

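For the 71 ribosomal protein genes, 0 were called in PRP-treated diabetic against diabetic ulcers under each of the alternatives run. In diabetic against non-diabetic ulcers 37 were called with sample weights, 1 with the replicate block, 1 after centring (Rpl18) and 0 to 7 when leaving out 1 library. In PRP-treated diabetic against non-diabetic ulcers 23 were called with sample weights and 0 otherwise. The weights gave non-diabetic replicate 1 a weight of 7.50 and the other libraries 0.396 to 2.96. Deviations of same-numbered libraries from their group means had correlations of -0.407 to 0.351 over all features, and the numbers were not used as pairs. Such correlations cannot show whether libraries of the same number shared a handling step.

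Over all features, 1 was called in PRP-treated diabetic against diabetic ulcers with no filter, with size factors or after centring. For diabetic against non-diabetic ulcers the count of 1396 was 0 with no filter, 0 on only 6 libraries, 0 without non-diabetic replicates 1 and 3, 534 with size factors, 1259 with the replicate block, 2519 after centring, 5607 with sample weights and 0 to 3498 when leaving out 1 library. For PRP-treated diabetic against non-diabetic ulcers it was 2 with no filter, 0 on only 6 libraries, 0 with the replicate block, 0 without non-diabetic replicates 1 and 3, 6477 with sample weights and 0 to 714 when leaving out 1 library. Of the calls for diabetic against non-diabetic ulcers 279 were higher and 1117 lower, against 128 and 2391 after centring and 2716 and 2891 with sample weights.

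Centring on the family's own mean sets its median change near 0 by construction. It was then 0.040 in diabetic against non-diabetic and 0.0083 in PRP-treated diabetic against non-diabetic ulcers. Being fixed in this way, these values cannot show whether the median depends on processing. The family's median change was 0.17 without non-diabetic replicates 1 and 3 in diabetic against non-diabetic ulcers, where leaving out 1 library gave 0.31 to 0.59. In PRP-treated diabetic against non-diabetic ulcers it was 0.0059 without non-diabetic replicates 1 and 3 and 0.17 to 0.41 when leaving out 1 library, and in PRP-treated diabetic against diabetic ulcers leaving out 1 library gave -0.26 to -0.0014. With size factors 19 of 71 genes, not 6, were above 0 in PRP-treated diabetic against diabetic ulcers.

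Single genes changed sign as follows. In PRP-treated diabetic against diabetic ulcers Rps29 was at -0.10 with sample weights and at -0.21 to 0.35 when leaving out 1 library, with -0.0084 without PRP replicate 1 and -0.21 without diabetic replicate 2. Leaving out 1 library, Rpl3l was at -0.74 to 0.064, Rpl18 at -0.033 to 0.28 and Rpl14 at -0.14 to 0.61, each changing sign without diabetic replicate 1. In diabetic against non-diabetic ulcers Rpl35 was at 0.059 and Rps16 at 0.056 with sample weights. Leaving out 1 library there, Rpl35 was at -0.29 to 0.021, with the change of sign without non-diabetic replicate 2, while Rps16 at -0.23 to 0.028 and Rpl30 at -0.70 to 0.15 changed sign without diabetic replicate 2. In PRP-treated diabetic against non-diabetic ulcers Rpl18 was at 0.036 with sample weights and Rpl3l at -0.13 without non-diabetic replicates 1 and 3. The cause was not tested. Depths in reads are unknown.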

Other observations

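Some genes with related names lie outside the family and were named after their values were seen. Rpl22l1, a paralog of Rpl22, was at 163, 135 and 99.996 FPKM in PRP-treated diabetic, 106, 121 and 226 FPKM in diabetic and 92.8, 117 and 98.5 FPKM in non-diabetic ulcers. Its highest value was in diabetic replicate 3, the library in which 48 of the 71 ribosomal protein genes also had theirs. Rps6kb1, which encodes the S6 kinase that phosphorylates Rps6 protein, was at 15.7, 13.4 and 6.72 FPKM in PRP-treated diabetic, 15.7, 16.7 and 7.69 FPKM in diabetic and 12.9, 11.7 and 7.75 FPKM in non-diabetic ulcers. The lowest value of each group was in its replicate 3, and the groups overlapped. No test of these genes is given.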
